A study of Homo sapiens with 8 samples.

Results

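The 9 genes followed here carry MHC class I antigen presentation. They are the heavy chains HLA-B, HLA-C, HLA-E and HLA-F, the shared light chain B2M, the peptide transporter subunits TAP1 and TAP2, and the immunoproteasome subunits PSMB8 and PSMB9. They were chosen by name, with earlier results of these data known. Each of the 9 had at least 1 probe set annotated to its symbol alone, among 19775 genes so measured, and the brightest such probe set over the 8 arrays stood for the gene. The cells were NCI-H1975, an established human lung adenocarcinoma line that grows on a mutant EGFR receptor, and all arrays held RNA of this single line after 24 hours of treatment. The 8 conditions, with 1 array each, were 10 nM osimertinib with 1 µM alpelisib (the combination), 10 nM osimertinib, 1 µM alpelisib and DMSO vehicle, each of them with 2 mM L-histidinol and without it. Osimertinib binds mutant EGFR covalently and inhibits it, alpelisib blocks the alpha isoform of PI3K, and L-histidinol is a histidine analog used to mimic histidine shortage.

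Class I molecules show the peptide content of a cell to CD8 T cells and natural killer cells. Proteasomes cut cytosolic proteins into peptides, TAP1 and TAP2 together pump these into the endoplasmic reticulum, and the peptides are loaded there onto a heavy chain paired with B2M before the complex goes to the surface. The pathway is known for its induction by interferons and by NF-kappaB, through the class I transactivator NLRC5 and through interferon response elements in its promoters, and its loss is one way in which lung tumours escape T cells.

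Of the 9 genes, 8 lie on human chromosome 6 in the RefSeq annotation of build GRCh38.p14. HLA-F spans chr6:29723434-29738532, HLA-E chr6:30489509-30494194, HLA-C chr6:31268749-31272092 and HLA-B chr6:31353875-31357179. TAP2 (chr6:32821831-32838739), PSMB8 (chr6:32840717-32844679), TAP1 (chr6:32845209-32853704) and PSMB9 (chr6:32854192-32859851) share a stretch of 38.0 kb, in which the starts of TAP1 and PSMB9 face away from each other with 487 bases between them. B2M lies on chromosome 15 (chr15:44711517-44718145).

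RefSeq promoter sequences of GRCh38.p14, from 250 bases before to 50 after the gene start, were at hand for 8 of the 9 genes, all but HLA-E. They were searched on both strands for an interferon response element (GAAANNGAAA), an interferon gamma activated site (TTCNNNGAA) and the NF-kappaB consensus. The first was in 4 of 8 promoters (HLA-F, TAP2, TAP1, B2M) and in 3.65% of the 27305 promoters searched. The second was in 0 of 8 and in 7.88% of all. The third was in 4 of 8 (HLA-C, HLA-B, TAP1, B2M) and in 5.72% of all. PSMB8 and PSMB9 held none of these letters in the window. Variants of the patterns were not searched, so a promoter without a match, HLA-B and HLA-C for the interferon element among them, may still hold such an element. The stretches with matches are printed 5′ to 3′ on the gene's strand because they set the 6 promoters side by side, with the matched letters in capitals. In TAP1 and in B2M 2 overlapping matches to the interferon element run into each other, in HLA-B the NF-kappaB matches overlap, and TAP1 has a further NF-kappaB match 22 bases after its start that is not shown.
HLA-F chr6:29723258-29723307 (plus strand): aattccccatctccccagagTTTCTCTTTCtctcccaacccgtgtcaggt
HLA-C chr6:31272235-31272284 (minus strand): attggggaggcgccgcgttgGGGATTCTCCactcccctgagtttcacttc
HLA-B chr6:31357326-31357376 (minus strand): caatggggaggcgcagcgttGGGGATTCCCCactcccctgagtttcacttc
TAP2 chr6:32838768-32838817 (minus strand): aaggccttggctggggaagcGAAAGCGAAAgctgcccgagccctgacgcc
TAP1 chr6:32853747-32853858 (minus strand): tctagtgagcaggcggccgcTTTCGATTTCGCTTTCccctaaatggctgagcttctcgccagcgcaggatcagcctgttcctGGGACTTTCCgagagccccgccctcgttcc
B2M chr15:44711353-44711421 (plus strand): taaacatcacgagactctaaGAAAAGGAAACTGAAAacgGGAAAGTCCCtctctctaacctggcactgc
The capitals in HLA-F, TAP2 and the first capital stretches of TAP1 and B2M are interferon elements. Those in HLA-C, HLA-B and the second stretches of TAP1 and B2M are NF-kappaB matches. A match describes letters and is not evidence of a bound site.

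All levels are log2 of the authors' normalized intensity, and a level of one probe set cannot be set against that of another. Median intensity per array was between 21.8 and 22.4, and arrays correlated at r = 0.974 to 0.996 across genes. All 7 lung epithelial markers had a mean log2 of at least 5, while the 6 measured leukocyte markers, PTPRC among them, were all below 5 and summed to an intensity of 96.4 to 112 per array, against 24300 to 33900 for the epithelial list. Of 3 endothelial markers 2 were below 5 (summed intensity 53.9 to 67.1), and of 5 fibroblast markers 2 were (358 to 1190). With the combination against vehicle 5 of 7 epithelial markers rose, NKX2-1 by 1.90 ± 0.12, 2 of 5 fibroblast markers rose, COL1A1 by 1.53 among them, and 0 of 6 leukocyte markers changed. Over all genes, 21.4% were called higher and 19.2% lower. The probe sets of NKX2-1 and COL1A1 have names that mark probes shared by several transcripts. The part of these shifts in the results was not tested. Genes that report on the agents moved as follows: DUSP6, a phosphatase induced by ERK, fell by 3.52 ± 0.18 with the combination, CCNG2, a FOXO target, rose by 2.19 ± 0.08, and ASNS, an ATF4 target, rose by 2.02 ± 0.12 with L-histidinol on a probe set whose name marks probes shared by several transcripts. Differences are fitted log2 differences ± standard error from limma over the 8 arrays, called at a Benjamini-Hochberg adjusted p below 0.05 over all genes. With 1 array a condition, the error is what a sum of an L-histidinol term and a drug term leaves unexplained. It mixes noise with any true interaction, the p-values speak only of the spread between these 8 arrays, and precision is limited by their number. In a lysate of many cells, fewer cells with a transcript and less transcript per cell cannot be told apart.

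**Figure D1:**
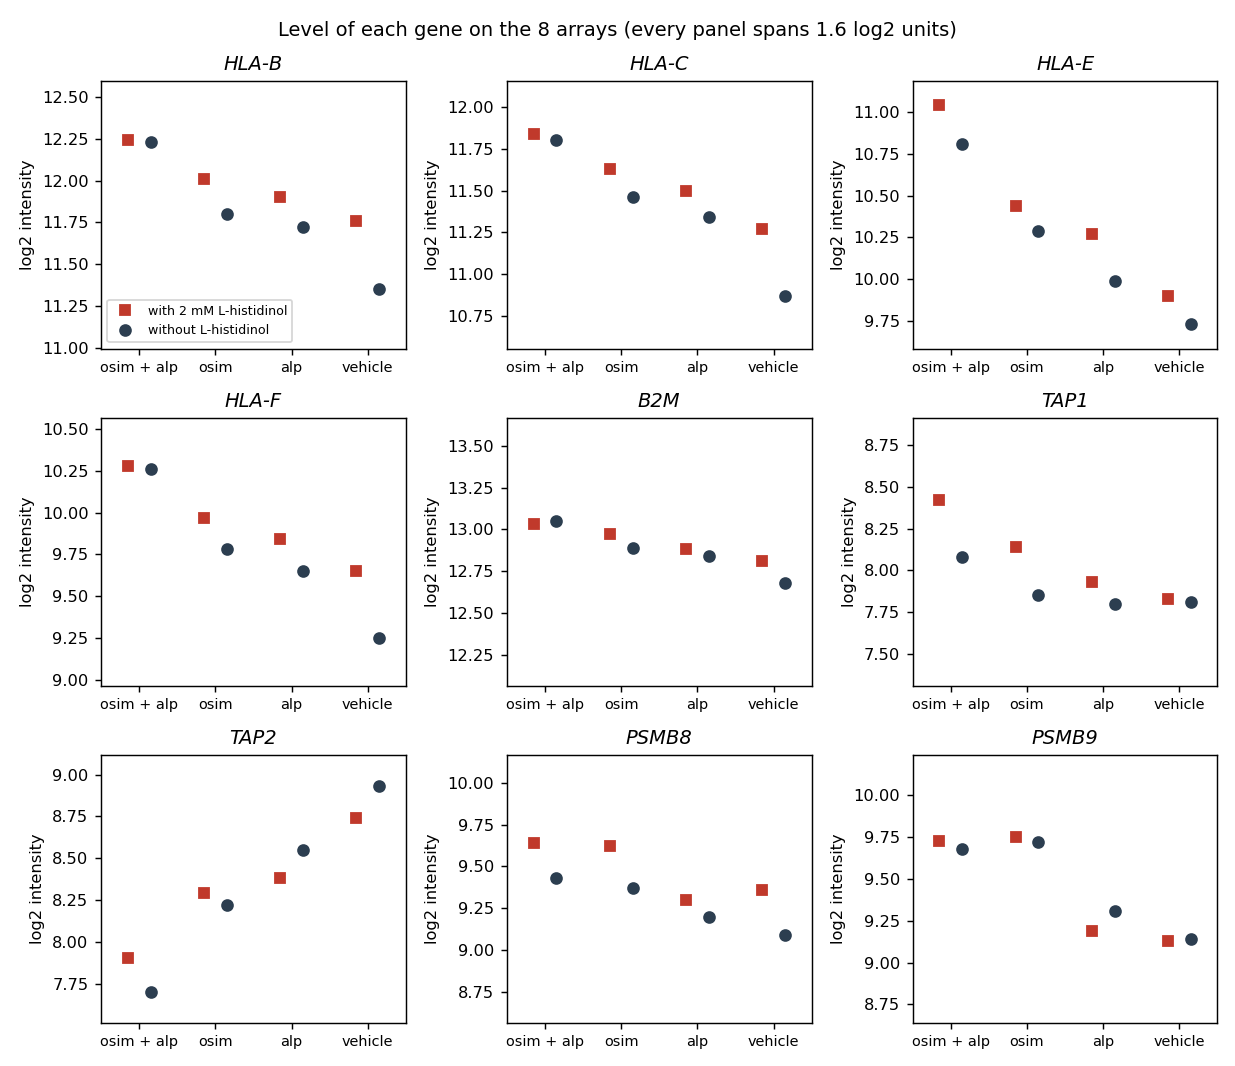
Level of each of the 9 genes (log2 intensity, vertical axis) on the 8 arrays, with osimertinib plus alpelisib (osim + alp), osimertinib, alpelisib and vehicle from left to right. Squares are arrays with 2 mM L-histidinol and circles arrays without it, 1 array per point. The 4 HLA genes and B2M step down from the combination to vehicle, TAP2 steps up, and PSMB9 forms a high pair of treatments (9.68 to 9.75) and a low pair (9.13 to 9.31).

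HLA-B, a classical heavy chain that presents peptides to CD8 T cells, was highest with the combination. With L-histidinol its level was 12.24 with the combination, 12.01 with osimertinib, 11.90 with alpelisib and 11.76 with vehicle. Without L-histidinol it was 12.23 with the combination, 11.80 with osimertinib, 11.72 with alpelisib and 11.35 with vehicle. Both combination arrays were above the other 6, and the vehicle array without L-histidinol was the lowest. The gene rose by 0.68 ± 0.08 with the combination against vehicle (adjusted p = 2.3e-05).

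HLA-C, the other classical heavy chain and a ligand of inhibitory receptors on natural killer cells, ran in the same order. With L-histidinol it measured 11.84 with the combination, 11.63 with osimertinib, 11.50 with alpelisib and 11.27 with vehicle. Without L-histidinol it measured 11.80 with the combination, 11.46 with osimertinib, 11.34 with alpelisib and 10.87 with vehicle. Here too the combination arrays stood above all others and the vehicle array without L-histidinol stood lowest. The fitted difference of the combination from vehicle was 0.74 ± 0.07 (adjusted p = 7.87e-06).

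HLA-E, a nonclassical heavy chain that presents leader peptides of other class I chains to the NKG2A receptor, had the widest range of the 9 genes, 1.30 log2 units. Its levels with L-histidinol were 11.04 with the combination, 10.44 with osimertinib, 10.27 with alpelisib and 9.90 with vehicle. Its levels without L-histidinol were 10.81 with the combination, 10.29 with osimertinib, 9.99 with alpelisib and 9.73 with vehicle. The 4 treatments did not overlap, although alpelisib with L-histidinol came close to osimertinib without it. The combination raised it by 1.11 ± 0.06, a fold change of 2.15 (adjusted p = 1.35e-07).

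HLA-F, a nonclassical heavy chain of low surface expression, followed HLA-B closely. With L-histidinol the probe set read 10.28 with the combination, 9.97 with osimertinib, 9.84 with alpelisib and 9.65 with vehicle. Without L-histidinol it read 10.26 with the combination, 9.78 with osimertinib, 9.65 with alpelisib and 9.25 with vehicle. The combination pair was again the highest, and the rise against vehicle was 0.82 ± 0.08 (adjusted p = 7.37e-06).

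The probe sets that stood for the 4 HLA genes have names ending in _x_at, which marks probes that can bind transcripts of other genes, and the HLA genes are near-identical in long stretches, so these levels may hold signal of one another. HLA-B and HLA-C had only probe sets of this kind, 3 and 4 of them, and all 7 were higher with the combination than with vehicle, by 0.47 to 0.72 with L-histidinol and by 0.88 to 0.97 without it. For HLA-E a probe set with no such mark was at hand. With L-histidinol it measured 8.44 with the combination, 7.67 with osimertinib, 7.48 with alpelisib and 6.83 with vehicle, and without L-histidinol 8.69 with the combination, 7.79 with osimertinib, 7.40 with alpelisib and 6.90 with vehicle. On this probe set the combination raised HLA-E by 1.70 ± 0.09 (adjusted p = 1.03e-07), more than on the main one. The unmarked probe set of HLA-F was dim (mean log2 4.09) and gave 0.79 ± 0.14 (adjusted p = 6.56e-04). HLA-G, a further nonclassical heavy chain read by a probe set of the marked kind, differed by 0.67 ± 0.07 (adjusted p = 1.09e-05).

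B2M, the light chain that every class I molecule needs, had small differences on its brightest probe set. With L-histidinol it measured 13.03 with the combination, 12.97 with osimertinib, 12.88 with alpelisib and 12.81 with vehicle. Without L-histidinol it measured 13.05 with the combination, 12.89 with osimertinib, 12.84 with alpelisib and 12.68 with vehicle. Its range on that probe set was 0.37, and its mean stood at percentile 99.7 of all genes. The rise with the combination was 0.29 ± 0.05 (adjusted p = 3.51e-04). It was 0.38 ± 0.08 with the mean of the 3 B2M probe sets and 0.58 ± 0.17 on the dim one whose name bears no mark (mean log2 4.37, range 0.92).

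TAP1, one of the paired subunits of the peptide pump, was flat over most arrays. With L-histidinol it measured 8.42 with the combination, 8.14 with osimertinib, 7.93 with alpelisib and 7.83 with vehicle. Without L-histidinol it measured 8.08 with the combination, 7.85 with osimertinib, 7.80 with alpelisib and 7.81 with vehicle. The combination array with L-histidinol stood highest, and the osimertinib array with L-histidinol stood above the combination array without it. TAP1 rose by 0.43 ± 0.09 with the combination (adjusted p = 0.00224). Its only probe set ends in _s_at, which marks probes shared by several transcripts, so no other probe set could serve as a check.

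TAP2, the partner of TAP1, ran the other way. With L-histidinol it measured 7.90 with the combination, 8.29 with osimertinib, 8.38 with alpelisib and 8.74 with vehicle. Without L-histidinol it measured 7.70 with the combination, 8.22 with osimertinib, 8.55 with alpelisib and 8.93 with vehicle. Both combination arrays were the lowest and both vehicle arrays the highest, with no overlap between the 4 treatments. TAP2 fell by 1.04 ± 0.10 with the combination (adjusted p = 6e-06). The probe set ends in _s_at, which marks probes shared by several transcripts. A second TAP2 probe set without that mark read 6.45 with the combination, 6.48 with osimertinib, 6.91 with alpelisib and 6.93 with vehicle in the presence of L-histidinol, and 6.14 with the combination, 6.39 with osimertinib, 6.70 with alpelisib and 7.05 with vehicle in its absence, and on it TAP2 fell by 0.70 ± 0.11 with the combination (adjusted p = 2.08e-04). The remaining 2 TAP2 probe sets were dim, with means of 4.69 and 2.88, and differed between the combination and vehicle by -0.33 to -0.07.

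PSMB8, which replaces the catalytic subunit PSMB5 in the immunoproteasome, measured 9.64 with the combination, 9.62 with osimertinib, 9.30 with alpelisib and 9.36 with vehicle in the presence of L-histidinol. In its absence PSMB8 measured 9.43 with the combination, 9.37 with osimertinib, 9.20 with alpelisib and 9.09 with vehicle. The treatments with osimertinib were higher than those without it at each level of L-histidinol. PSMB8 rose by 0.31 ± 0.07 with the combination (adjusted p = 0.00271). Its only probe set also ends in _s_at, so no other probe set could serve as a check.

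PSMB9, the immunoproteasome counterpart of PSMB6, measured 9.73 with the combination, 9.75 with osimertinib, 9.19 with alpelisib and 9.13 with vehicle in the presence of L-histidinol. In its absence PSMB9 measured 9.68 with the combination, 9.72 with osimertinib, 9.31 with alpelisib and 9.14 with vehicle. The 4 arrays with osimertinib lay close together and above the 4 without it. PSMB9 rose by 0.57 ± 0.07 with the combination (adjusted p = 3.39e-05).

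In the comparison of the combination with vehicle, 8 of 9 genes were thus called higher, against 21.4% of all genes, and 1 lower (TAP2), against 19.2% of all genes. The median difference over the 9 was 0.57, against -0.001 over all genes. Because the 9 were chosen with earlier results of these data known, these shares describe the set and are no independent test of it. All 9 calls held in every alternative that was run for a gene, 15 to 17 each, including the loss of any 1 array. Across these, the difference of B2M lay between 0.16 and 0.58, that of TAP2 between -1.19 and -0.56 and that of HLA-E between 0.98 and 1.70. The share of higher calls among all genes depends on the scaling: 4233 genes were higher and 3800 lower as deposited, but 3178 higher and 5516 lower when each array was centred on the median of the tested genes, a setting added after seeing the data that moves the median of all genes to -0.13. Relative to that centre, the differences were 0.98 for HLA-E, 0.69 for HLA-F, 0.61 for HLA-C, 0.55 for HLA-B, 0.44 for PSMB9, 0.30 for TAP1, 0.18 for PSMB8, 0.16 for B2M and -1.17 for TAP2.

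**Figure D2:**
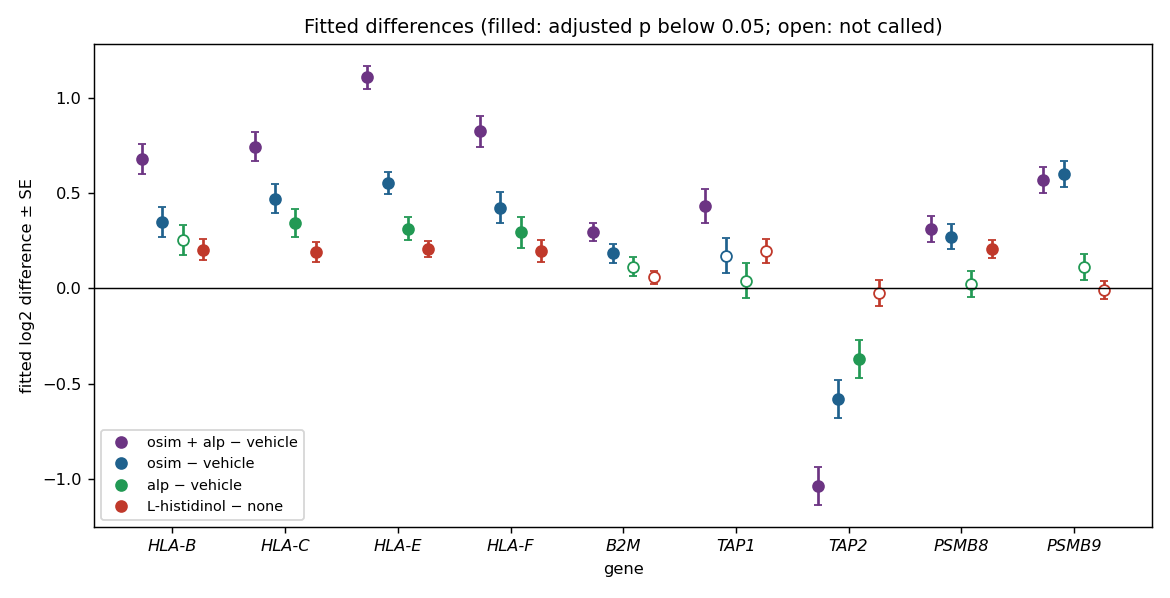
Fitted log2 difference ± standard error (vertical axis) of the 9 genes for osimertinib plus alpelisib, osimertinib and alpelisib, each minus vehicle, and for L-histidinol minus none. Filled points have an adjusted p below 0.05 and open points do not. The combination is called for all 9 genes, from 1.11 for HLA-E to -1.04 for TAP2.

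Osimertinib alone, set against vehicle, raised 7 of the 9 genes and lowered 1, against 16.4% of all genes higher and 14.0% lower. PSMB9 had the largest rise, 0.60 ± 0.07 (adjusted p = 6.21e-05), followed by HLA-E at 0.55 ± 0.06 (adjusted p = 4.33e-05). HLA-C rose by 0.47 ± 0.07, HLA-F by 0.42 ± 0.08, HLA-B by 0.35 ± 0.08, PSMB8 by 0.27 ± 0.07 and B2M by 0.18 ± 0.05. TAP2 fell by 0.58 ± 0.10 (adjusted p = 9.26e-04), and TAP1 was not called at 0.17 ± 0.09 (adjusted p = 0.2). The median over the 9 was 0.35, against 0.013 over all genes. With osimertinib 5 of 7 epithelial and 3 of 5 fibroblast markers rose and 0 fell. With the mean of its probe sets B2M gave 0.19 ± 0.08 (adjusted p = 0.136), and on its unmarked one 0.18 ± 0.17 (adjusted p = 0.518). Neither was a call. Without the vehicle array that lacked L-histidinol, HLA-B, B2M and PSMB8 lost their calls, and calls over all genes also became fewer. B2M and PSMB8 were also not called without the one or the other osimertinib array, or with arrays centred on the median of the genes, where they were 0.08 and 0.17 and where 2289 genes were higher and 4123 lower, against 3246 higher and 2765 lower as deposited.

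Alpelisib alone, set against vehicle, gave the smallest changes of the 3 drug treatments. HLA-C rose by 0.34 ± 0.07 (adjusted p = 0.0132), HLA-E by 0.31 ± 0.06 (adjusted p = 0.00724) and HLA-F by 0.29 ± 0.08 (adjusted p = 0.0395), while TAP2 fell by 0.37 ± 0.10 (adjusted p = 0.034). These are 3 of 9 higher and 1 of 9 lower, against 7.08% and 4.38% of all genes. HLA-B missed the threshold at 0.25 ± 0.08 (adjusted p = 0.0574). B2M (0.11 ± 0.05), PSMB9 (0.11 ± 0.07), TAP1 (0.04 ± 0.09) and PSMB8 (0.02 ± 0.07) were not called. No gene of the 9 was called without the alpelisib array that lacked L-histidinol or without the one that had it, 1 was called without the vehicle array that lacked L-histidinol, and 2 were called without the one or the other osimertinib array. On probe sets without either mark TAP2 gave -0.18 ± 0.11 (adjusted p = 0.39) and HLA-F, left with its unmarked one, 0.47 ± 0.14 (adjusted p = 0.0623). With alpelisib 4 of 7 epithelial and 1 of 5 fibroblast markers rose. With arrays centred on the median of the genes HLA-F was not called (0.21, adjusted p = 0.114), and over all genes 953 were then higher and 2000 lower, against 1401 higher and 866 lower as deposited.

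The combination was also set against each single drug, comparisons that share the combination arrays. Against osimertinib, 5 of 9 genes were called, against 13.4% of all genes. HLA-E rose by 0.55 ± 0.06 (adjusted p = 4.61e-04), HLA-F by 0.40 ± 0.08, HLA-B by 0.33 ± 0.08 and HLA-C by 0.27 ± 0.07, and TAP2 fell by 0.45 ± 0.10 (adjusted p = 0.0122). PSMB8 (0.04 ± 0.07), PSMB9 (-0.03 ± 0.07), B2M (0.11 ± 0.05) and TAP1 (0.26 ± 0.09, adjusted p = 0.0888) were not called. HLA-E alone was called without the one or the other osimertinib array or without the combination array that lacked L-histidinol, with 1 of 9 called in each case, and over all genes 508 to 1051 were then called in place of 2643. HLA-C also lost its call without the one or the other alpelisib array. On its unmarked probe set HLA-F gave 0.25 ± 0.14 (adjusted p = 0.312) and was not called, and TAP2 with the mean of its probe sets gave -0.10 ± 0.09 (adjusted p = 0.57).

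Against alpelisib, all 9 genes were called, 8 higher and TAP2 lower, against 29.0% of all genes. HLA-E rose by 0.80 ± 0.06, HLA-F by 0.53 ± 0.08, PSMB9 by 0.46 ± 0.07, HLA-B by 0.42 ± 0.08, HLA-C by 0.40 ± 0.07 and TAP1 by 0.39 ± 0.09. PSMB8 rose by 0.29 ± 0.07, B2M by 0.18 ± 0.05, and TAP2 fell by 0.66 ± 0.10. Leaving out 1 array, alpelisib or combination, ended the call for B2M in 3 cases, for TAP1 in 2 and for PSMB8 in 1. Calls over all genes also became fewer in each of these cases. On its unmarked probe set HLA-F gave 0.32 ± 0.14 (adjusted p = 0.121) and was not called. B2M was also not called with the mean of its probe sets (0.25 ± 0.08, adjusted p = 0.0606). Nor was it on its unmarked one (0.38 ± 0.17, adjusted p = 0.134).

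The order of the single drugs was less settled. Osimertinib against alpelisib gave 3 calls among the 9 genes, against 11.0% of all genes. PSMB9 was higher with osimertinib by 0.49 ± 0.07 (adjusted p = 0.00112), PSMB8 by 0.25 ± 0.07 (adjusted p = 0.0376) and HLA-E by 0.24 ± 0.06 (adjusted p = 0.0249). PSMB9 alone kept its call when any 1 array was left out, and PSMB8 and HLA-E lost theirs without any 1 of the osimertinib or alpelisib arrays, when 452 to 806 of all genes were called in place of 2185. For HLA-E the unmarked probe set gave 0.29 ± 0.09 (adjusted p = 0.0691). HLA-B (0.10 ± 0.08), HLA-C (0.13 ± 0.07), HLA-F (0.13 ± 0.08), B2M (0.07 ± 0.05), TAP1 (0.13 ± 0.09) and TAP2 (-0.21 ± 0.10) were not called, which does not show that their levels were equal. On its brightest unmarked probe set TAP2 gave -0.38 ± 0.11 (adjusted p = 0.0527).

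The excess of the combination over the summed single-drug differences was called for 0 of 9 genes by limma, against 0.0303% of all genes (6 genes), and 1 of 9 had an unadjusted p below 0.05, as did 1748 of all 19775 genes. That gene was HLA-E, whose difference with the combination was 0.24 ± 0.08 above the sum (unadjusted p = 0.0152, adjusted p = 0.423). The same quantity was 0.22 ± 0.13 for TAP1 and -0.14 ± 0.10 for PSMB9, and neither was called.

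L-histidinol, compared over 4 pairs of arrays that share a drug treatment, raised 5 of the 9 genes and lowered 0, against 11.4% of all genes higher and 9.17% lower. The 4 HLA heavy chains and PSMB8 made up the 5. HLA-E rose by 0.21 ± 0.04 (adjusted p = 0.00521), PSMB8 by 0.21 ± 0.05 (adjusted p = 0.00995), HLA-B by 0.20 ± 0.06 (adjusted p = 0.0221), HLA-F by 0.20 ± 0.06 (adjusted p = 0.0316) and HLA-C by 0.19 ± 0.05 (adjusted p = 0.0246). TAP1 missed the threshold at 0.20 ± 0.06 (adjusted p = 0.0533), and B2M (0.06 ± 0.03), PSMB9 (-0.01 ± 0.05) and TAP2 (-0.02 ± 0.07) were not called. The unmarked probe set of HLA-E gave -0.09 ± 0.06 (adjusted p = 0.404) and that of HLA-F 0.11 ± 0.10 (adjusted p = 0.526), so neither HLA gene with such a probe set was called on it. Of the 7 lung epithelial markers, 4 fell and 0 rose with L-histidinol, NKX2-1 by 0.62 ± 0.08 among them, and the part of this shift was not tested. Leaving out 1 array left 1 to 5 of 9 called: 3 without the one or the other vehicle array, and 1 without any 1 of the osimertinib or alpelisib arrays. The ratio of the 3′ to the 5′ ACTB control probe set, a sign of RNA integrity, was 1.10 to 1.15 on arrays with L-histidinol and 1.04 to 1.07 on arrays without it, and its part in these differences was not tested. For GAPDH the ratio was 0.966 to 0.982 with L-histidinol and 0.978 to 1.01 without it.

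The L-histidinol difference varied between the drug backgrounds. For HLA-B it was 0.00 with the combination, 0.21 with osimertinib, 0.18 with alpelisib and 0.41 with vehicle. For HLA-C it was 0.04 with the combination, 0.16 with osimertinib, 0.16 with alpelisib and 0.40 with vehicle. HLA-F gave 0.02 with the combination, 0.19 with osimertinib, 0.19 with alpelisib and 0.39 with vehicle. On the probe sets used, the vehicle pair differed most and the combination pair least in these 3 genes. The unmarked probe set of HLA-F gave -0.01 with the combination, -0.14 with osimertinib, 0.22 with alpelisib and 0.36 with vehicle. On it the osimertinib pair was thus the lowest. HLA-E gave 0.23 with the combination, 0.15 with osimertinib, 0.28 with alpelisib and 0.16 with vehicle on the probe set used, while the unmarked one gave -0.24 with the combination, -0.12 with osimertinib, 0.08 with alpelisib and -0.07 with vehicle. TAP1 gave 0.34 with the combination, 0.29 with osimertinib, 0.13 with alpelisib and 0.02 with vehicle. PSMB8 was higher with L-histidinol in all 4 pairs, by 0.10 to 0.27. B2M gave -0.02 with the combination, 0.08 with osimertinib, 0.04 with alpelisib and 0.13 with vehicle. Its vehicle pair too differed most and its combination pair least. Each of these values compares 1 array with 1 array and has no replicate check.

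The interaction tests bear on this variation. For the interaction of L-histidinol with osimertinib limma called 0 of 9 genes and 0% of all genes, with 3 of 9 and 1653 of all genes at an unadjusted p below 0.05. HLA-B gave -0.19 ± 0.07 (unadjusted p = 0.028, adjusted p = 0.549), HLA-C -0.18 ± 0.08 (unadjusted p = 0.0448, adjusted p = 0.587) and TAP2 0.32 ± 0.11 (unadjusted p = 0.0193, adjusted p = 0.525). For the interaction with alpelisib 0 of 9 and 0% of all genes were called, with 2 of 9 and 998 of all genes at an unadjusted p below 0.05. These were HLA-B at -0.22 ± 0.07 (unadjusted p = 0.0136, adjusted p = 0.95) and HLA-C at -0.18 ± 0.08 (unadjusted p = 0.0441, adjusted p = 0.95). With the prior variance estimated in that fit itself, 2 of 9 genes were called for osimertinib and 1 for alpelisib, with 896 and 278 called over all genes. That fit leaves 1 residual degree of freedom, which estimates the prior poorly. Its prior had 102.6 degrees of freedom, against 8.08 for the prior used in the tests above.

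**Figure D3:**
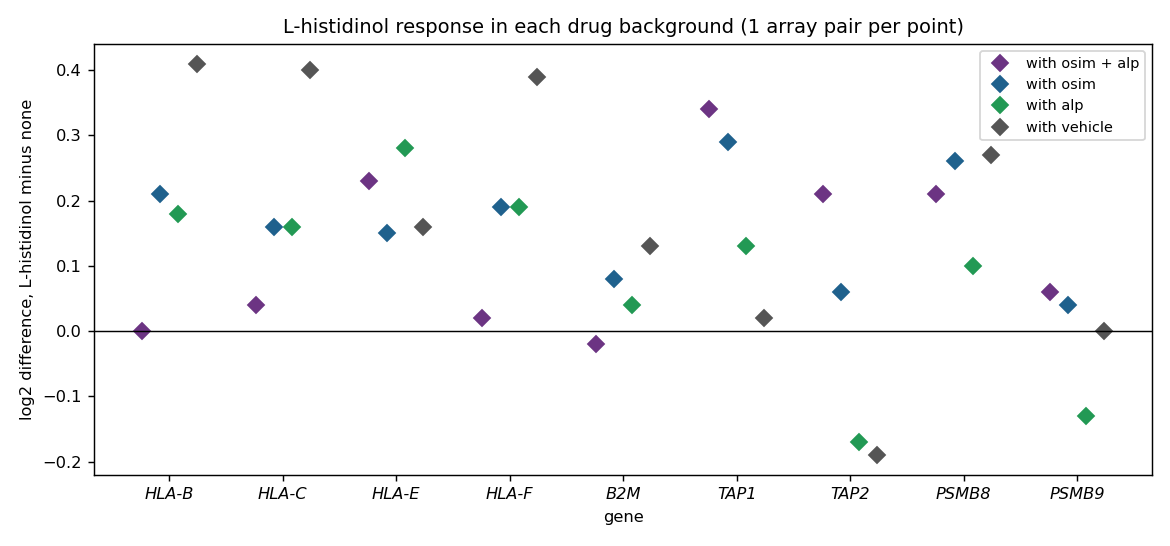
Log2 difference of L-histidinol minus none (vertical axis) for each of the 9 genes within each drug treatment, with osimertinib plus alpelisib, osimertinib, alpelisib and vehicle from left to right in each gene. Each point compares 1 array with 1 array and carries no error. For HLA-B, HLA-C and HLA-F the vehicle pair is at 0.39 to 0.41 and the combination pair at 0.00 to 0.04.

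Genes that load, trim and cut peptides were followed as a background to the 9. Of 7 peptide loading and trimming genes, 4 rose with the combination against vehicle and 0 fell, against 21.4% of all genes higher and 19.2% lower. The median of the 7 was 0.46. TAPBP, the tapasin that bridges TAP to the heavy chain, rose by 0.86 ± 0.08, TAPBPL by 0.60 ± 0.10, and the trimming peptidases ERAP1 and ERAP2 by 0.55 ± 0.10 and 0.46 ± 0.08. TAPBP measured 9.34 with the combination, 9.33 with osimertinib, 8.93 with alpelisib and 8.60 with vehicle in the presence of L-histidinol. In its absence TAPBP measured 9.47 with the combination, 9.28 with osimertinib, 8.88 with alpelisib and 8.49 with vehicle, so that both osimertinib treatments stood above the others. The general endoplasmic reticulum chaperones CALR (-0.04 ± 0.08), CANX (-0.05 ± 0.06) and PDIA3 (0.05 ± 0.05) were not called with the combination. CALR fell by 0.31 ± 0.05 with L-histidinol, the only one of the 7 called there, against 11.4% of all genes higher and 9.17% lower.

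The other proteasome genes split. Of 6 measured, 2 rose and 4 fell with the combination, against 21.4% of all genes higher and 19.2% lower. PSMB10, the remaining catalytic subunit of the immunoproteasome, rose by 0.51 ± 0.07, and PSME1, a subunit of the interferon-inducible PA28 activator, by 0.62 ± 0.06. Their constitutive counterparts fell: PSMB5, which PSMB8 replaces, by 0.52 ± 0.09, PSMB7, which PSMB10 replaces, by 0.51 ± 0.05, and PSMB6, which PSMB9 replaces, by 0.21 ± 0.05. PSME3, the nuclear PA28 gamma, fell by 1.01 ± 0.06.

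**Figure D4:**
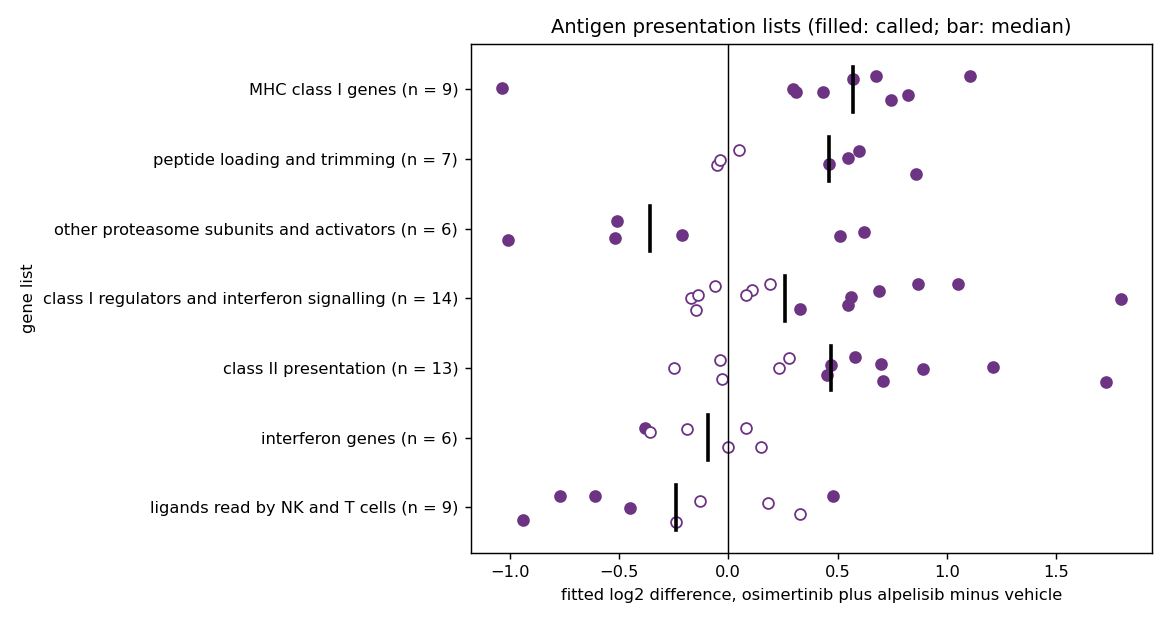
Fitted log2 difference of osimertinib plus alpelisib minus vehicle (horizontal axis) for the 9 class I genes and 6 lists of related genes, with the number of measured genes after each name. Each point is a gene, filled where the adjusted p is below 0.05, and the bar is the list's median. The medians are 0.57 for the class I genes, 0.46 for peptide loading and trimming, -0.36 for other proteasome genes and 0.26 for regulators.

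Of 14 measured regulators of class I transcription and interferon signalling, 7 rose and 0 fell with the combination. Over all genes, 21.4% were called higher and 19.2% lower. IRF9, the DNA-binding part of the complex that acts on interferon response elements, rose by 1.80 ± 0.13, NLRC5 by 1.05 ± 0.12, NFKBIA, an NF-kappaB inhibitor and target, by 0.87 ± 0.08 and the kinase JAK1 by 0.69 ± 0.06. NLRC5 measured 8.01 with the combination, 7.60 with osimertinib, 7.49 with alpelisib and 7.18 with vehicle in the presence of L-histidinol. In its absence NLRC5 measured 7.82 with the combination, 6.99 with osimertinib, 7.35 with alpelisib and 6.56 with vehicle. Its vehicle array without L-histidinol was the lowest, as for the HLA genes, but also as for B2M, PSMB8, IRF1, IRF2 and IRF9. Unlike the HLA genes, NLRC5 without L-histidinol was higher with alpelisib than with osimertinib. Its part in the class I levels was not tested. With L-histidinol 6 of the 14 rose and 1 fell, against 11.4% of all genes higher and 9.17% lower. IFNAR1 (0.47 ± 0.08), IRF9 (0.40 ± 0.09), NLRC5 (0.39 ± 0.09) and IRF2 (0.38 ± 0.07) led the rises. The 6 measured interferon genes had mean levels of 1.73 to 3.88, near the bottom of the scale. With the combination 0 rose and 1 fell (IFNB1, -0.38 ± 0.13, adjusted p = 0.0414). With osimertinib 1 rose (IFNL1, 0.51 ± 0.15, adjusted p = 0.0214) and 1 fell (IFNB1, -0.41 ± 0.13, adjusted p = 0.0362), against 16.4% of all genes higher and 14.0% lower.

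Class II molecules show antigen to CD4 T cells. Of 13 genes, 8 rose with the combination and 9 with osimertinib, while 1 rose with alpelisib and 0 fell in any of these. Over all genes, 21.4% were called higher with the combination, 16.4% with osimertinib and 7.08% with alpelisib, and 19.2%, 14.0% and 4.38% lower. The 1 of 13 with alpelisib is near its share of all genes. HLA-DMA, which edits class II peptides, rose by 1.73 ± 0.10 with the combination, 1.71 ± 0.10 with osimertinib and 0.57 ± 0.10 with alpelisib. HLA-DRA rose by 0.89 ± 0.09 with the combination and 0.95 ± 0.09 with osimertinib. L-histidinol lowered 4 of the 13 and raised 0, against 9.17% of all genes lower and 11.4% higher. HLA-DMA fell by 0.62 ± 0.07, HLA-DRA by 0.38 ± 0.07, HLA-DPB1 by 0.28 ± 0.07 and the class II factor RFX5 by 0.23 ± 0.06. The class I and class II differences were not tested against each other.

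Surface ligands that natural killer and T cells read beside class I moved in both directions. Of 9, 1 rose and 4 fell with the combination, against 21.4% of all genes higher and 19.2% lower. CD274, the checkpoint ligand PD-L1, fell by 0.94 ± 0.15 with the combination and by 1.38 ± 0.15 with osimertinib. CD274 measured 7.40 with the combination, 6.76 with osimertinib, 8.54 with alpelisib and 8.56 with vehicle in the presence of L-histidinol, and in its absence 7.49 with the combination, 7.26 with osimertinib, 8.46 with alpelisib and 8.22 with vehicle. All 4 arrays with osimertinib were thus below all 4 without it. PVR, a ligand of DNAM-1 and TIGIT, fell by 0.77 ± 0.08 with the combination, ULBP3, an NKG2D ligand, fell by 0.61 ± 0.15, and NECTIN2 rose by 0.48 ± 0.09. With L-histidinol 2 of the 9 rose and 1 fell, against 11.4% of all genes higher and 9.17% lower. ULBP1, another NKG2D ligand, rose by 0.72 ± 0.10 and PVR by 0.41 ± 0.05. The probe sets of ULBP1 and ULBP3 were dim, with mean log2 of 4.55 and 4.59.

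Over the 8 arrays the profiles ran the same way except for TAP2, and among the others PSMB9 was the least alike. The correlation of each gene with the mean of the other 8, a description over 8 arrays that share their treatments, was 0.96 for B2M, 0.95 for HLA-B, HLA-C and HLA-F, 0.94 for HLA-E, 0.90 for PSMB8, 0.88 for TAP1, 0.76 for PSMB9 and -0.94 for TAP2. The HLA probe sets can bind one another's transcripts. Among 11618 genes with a mean log2 of at least 5, the profiles most like the mean of the 9 were those of BCL2L11 and LRRC37B (r = 0.995 each), PARP10 and KMT5B (0.993 each), and MARCHF8 and RRAGC (0.992 each). They were followed by CCN3 and CCNI (0.991 each) and by ZFYVE26 and DICER1-AS1 (0.990 each).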

How the data were processed

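Total RNA of NCI-H1975 cells was labelled from 100 ng as biotinylated cRNA and hybridised to 8 Affymetrix U133 Plus 2.0 arrays, per the labels' protocols. The deposited values are linear intensity per probe set, made by the authors with RMA and affy per the submitters' processing notes (versions not given in the sources used here), and log2 of the deposited intensity was taken here. The planned design foresaw log2 values. Of 54675 probe sets, 62 controls, 1801 with several symbols and 11721 with none were left out, which left 41091 for 19775 genes, and 41037 matched the RefSeq gene table. The brightest probe set by mean stood for a gene.

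limma 3.58.1 (R 4.3.3) fitted L-histidinol plus a drug treatment of 4 levels, with variances following mean intensity (3 residual and 8.08 prior degrees of freedom). For interactions, all 2-way terms were fitted under the same prior. The fit was also run on simulated data in which few genes changed, unlike here, so that run does not vouch for these calls. The 9 genes and all related lists were chosen with earlier results of these data known. All 9 were named in every comparison, with up to 4 members of each other list by size of change, and further members were named after their values were seen. Alternatives changed the scaling, variance trend, probe set choice, dim filter, model, prior and arrays used. Other steps used Python 3.11.15 with pandas 2.3.3, numpy 2.4.6 and, for plots, matplotlib 3.10.9.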

Additional observations from a re-analysis of the deposited data

Results flagged for a closer look

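On the TAP2 probe set used, the L-histidinol difference lay above 0 in both backgrounds with osimertinib (0.21 with the combination, 0.06 with osimertinib) and below 0 in both without it (-0.17 with alpelisib, -0.19 with vehicle). The limma test of that difference gave 0.32 ± 0.11 (unadjusted p = 0.0193, adjusted p = 0.525), which is not a call. A second TAP2 probe set did not show this split: it gave 0.32 with the combination, 0.09 with osimertinib, 0.21 with alpelisib and -0.13 with vehicle. For PSMB9 the difference was 0.06 with the combination, 0.04 with osimertinib, -0.13 with alpelisib and -0.00 with vehicle, and its interaction was 0.11 ± 0.10 (unadjusted p = 0.279, adjusted p = 0.801).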

How the results depend on the processing

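Of 1029 values of the 9 genes under alternatives, 868 kept their direction and side of the threshold, 126 lost a call, 15 gained one and 20 reversed, and of 153 counts of called genes 113 stayed within 1.5 times and 40 did not. Without a variance trend 0 of 9 were called for L-histidinol, 5 for osimertinib, 0 for alpelisib, 1 for the combination against osimertinib and 1 for osimertinib against alpelisib. Calls over all genes then fell from 4069 to 2806 for L-histidinol and from 6011 to 5034 for osimertinib. They fell from 2643 to 1017 for the combination against osimertinib and from 2185 to 1042 for osimertinib against alpelisib. With the mean of all probe sets the counts were 1 for L-histidinol, 2 for alpelisib, 1 for the combination against osimertinib and 1 for osimertinib against alpelisib. Over all genes they were then 2968 for L-histidinol, 1222 for alpelisib, 1646 for the combination against osimertinib and 1464 for osimertinib against alpelisib. Without _x_at probe sets, 7 genes were left and 1 was called for L-histidinol, 2 for alpelisib and 2 for the combination against osimertinib. Of the 19356 genes left in all, 3995, 2229 and 2608 were called in these comparisons. Without _x_at and _s_at probe sets, 5 genes were left and 0 were called for L-histidinol, 4 for osimertinib, 1 for alpelisib, 5 for the combination against vehicle, 1 for it against osimertinib, 3 for it against alpelisib and 1 for osimertinib against alpelisib. Of the 17098 genes left in all, 2892, 4388, 1523, 6057, 1830, 4156 and 1555 were called in these comparisons, in the same order. The prior of the 2-way fit, poorly estimated from 1 residual degree of freedom, gave 2 for L-histidinol by osimertinib and 1 for L-histidinol by alpelisib. Leaving out 1 array gave 1 to 5 for L-histidinol, 5 to 8 for osimertinib, 0 to 5 for alpelisib, 9 in each case for the combination, 1 to 6 and 6 to 9 for it against osimertinib and alpelisib, and 1 to 3 for osimertinib against alpelisib. Reversed, all from uncalled values except HLA-E, were HLA-E with L-histidinol (-0.09 without _x_at, or without _x_at and _s_at), TAP2 with L-histidinol (0.12 without _x_at and _s_at, 0.01 as the mean, -0.10 to 0.03 with 1 array left out), PSMB9 with L-histidinol (0.01 with arrays centred on their median, -0.03 to 0.03 with 1 array left out), TAP1 with alpelisib (-0.04 centred on the gene median, -0.08 to 0.16 with 1 array left out), PSMB8 with alpelisib (-0.06 centred on the gene median, -0.05 to 0.09 with 1 array left out), PSMB9 for the combination against osimertinib (0.01 with quantile normalization, -0.08 to 0.01 with 1 array left out) and B2M for osimertinib against alpelisib (-0.02 without _x_at and _s_at). Over all genes, calls for alpelisib numbered 2267, but 779 without a trend, 1222 with the mean of probe sets and 600 and 175 without the alpelisib array that lacked or had L-histidinol, and calls for L-histidinol numbered 4069, but 2160 to 2403 without an osimertinib or alpelisib array. The cause was not tested, except that leaving out probe sets or arrays leaves fewer of them. No paired analysis was possible because no condition has a second array to share a replicate number, apart from the pairing of arrays by drug treatment that the fit already holds.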
